A study of Mus musculus with 24 samples.

Results

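Parp9, Dtx3l and Parp14 are 3 neighbouring genes on mouse chromosome 16, and their transcripts were followed in fibroblasts given interferon. They were taken by gene symbol from the array's GEO annotation, which gave 1 probe set for Parp9, 2 for Dtx3l and 2 for Parp14. These are 5 of the 34945 probe sets with a single gene symbol, and 3 of the 18194 genes those cover. The cells were NIH-3T3, a mouse embryonic fibroblast line, and total cellular RNA was read on 24 one-colour Affymetrix arrays. The 1 h time point holds IFN-alpha, IFN-gamma (each at 100 U/ml) and medium alone (mock) on 4 arrays apiece, with 200 uM 4-thiouridine (4sU, a nucleoside that cells build into new RNA) present for the full 60 min. A further 3 arrays held 1 h mock cells with no 4sU. The 3 h time point holds IFN-alpha, IFN-gamma and mock on 3 arrays apiece, with 500 uM 4sU from 150 to 180 min. Every group was given fresh medium at the start, so the mock groups share that change.

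The products of the 3 genes belong to the ADP-ribose system. Enzymes of the PARP family attach ADP-ribose to proteins, and macrodomains bind the modification. Parp9 and Parp14 both carry macrodomains next to a PARP domain, which transfers single ADP-ribose units in Parp14 and is regarded as inactive by itself in Parp9. Dtx3l is a ubiquitin ligase of the Deltex family that forms a complex with Parp9. In human cells that complex has been linked to DNA repair and to antiviral defence. Parp14 is known from mouse lymphocytes as a cofactor of STAT6. All 3 genes are known as interferon-stimulated in several cell types.

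In the RefSeq table of build GRCm38.p6, Parp14 spans chr16:35831892-35871518, Dtx3l chr16:35926515-35939027 and Parp9 chr16:35938470-35972621. The cluster covers 140.7 kb. A stretch of 55.0 kb with 2 listed pseudogenes separates Parp14 from Dtx3l, while the annotated spans of Dtx3l and Parp9 overlap by 558 bp. The RefSeq promoter table held Dtx3l, 1 of the 3 genes. Its window runs from 250 bases before to 50 bases after the start of Dtx3l, at chr16:35938978-35939277 on the minus strand, and lies wholly inside the annotated span of Parp9. It is shown because its bases from the Dtx3l start onward, in capitals, lie where the annotated spans of Dtx3l and Parp9 overlap.
Dtx3l promoter: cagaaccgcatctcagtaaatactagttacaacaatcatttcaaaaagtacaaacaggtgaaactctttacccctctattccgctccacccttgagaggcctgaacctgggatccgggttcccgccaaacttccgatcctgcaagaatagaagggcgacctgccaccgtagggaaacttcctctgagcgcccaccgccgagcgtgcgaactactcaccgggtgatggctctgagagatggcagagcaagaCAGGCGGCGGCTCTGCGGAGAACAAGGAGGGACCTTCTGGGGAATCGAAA
The window was searched on both strands for the core of the interferon-stimulated response element (ISRE), GAAA repeated after any 2 bases, and for that of the gamma-activated site (GAS), TTCNNNGAA. Neither was present in these 300 bases. Of 32851 promoter windows of this length in the table, 3.44% held the ISRE letters and 8.30% the GAS letters.

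Signals are log2 values from GCRMA, and the median array value lay between 2.95 and 3.11. Differences are between group means with their standard error (SE), from a limma fit of 19305 probe sets above log2 4 on at least 3 arrays. Adjusted p-values (Benjamini-Hochberg over the 19305) under 0.05 were called, and the number of arrays limits the precision. Whether replicates came from separate cultures is not stated, so the p-values rest on a spread between arrays that may be technical. Log2 4 was taken as background. Where the lower group averaged below it, a fold is given as a bound against that level, written "at least". All 8 fibroblast markers measured averaged between 9.96 and 13.8. Of 6 leukocyte markers only Cd14 averaged above 4 (5.35), and 4 epithelial and 4 endothelial markers had means of at most 3.46. The 3′ minus 5′ difference of the beta-actin control was 2.22 to 3.43 on replicate 2 of every 1 h group and on replicate 3 of the mock cells without 4sU, against 0.785 to 1.37 on the other 19 arrays. In total RNA a change in transcript per cell and a change in the share of responding cells cannot be told apart. Probe sets varied more among the 1 h replicates (median SD 0.350 to 0.403) than among those of 3 h (0.118 to 0.127).

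All 5 probe sets of the cluster were higher after 3 h of either interferon than in mock cells. For Parp9, Dtx3l and the main Parp14 probe set the 3 h interferon arrays were also the highest of the series. At 1 h IFN-alpha arrays were already above mock in all 3 genes, while IFN-gamma arrays overlapped mock arrays in each gene. How many of all probe sets lack such overlap was not counted in any comparison, so nothing is read from overlap here or below. The probe set of Parp9 and the main one of Dtx3l were above log2 4 on all 10 mock arrays, and the Parp14 probe sets on none of them. The main probe set of Dtx3l or Parp14 is the one with the higher mean signal.

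**Figure D1:**
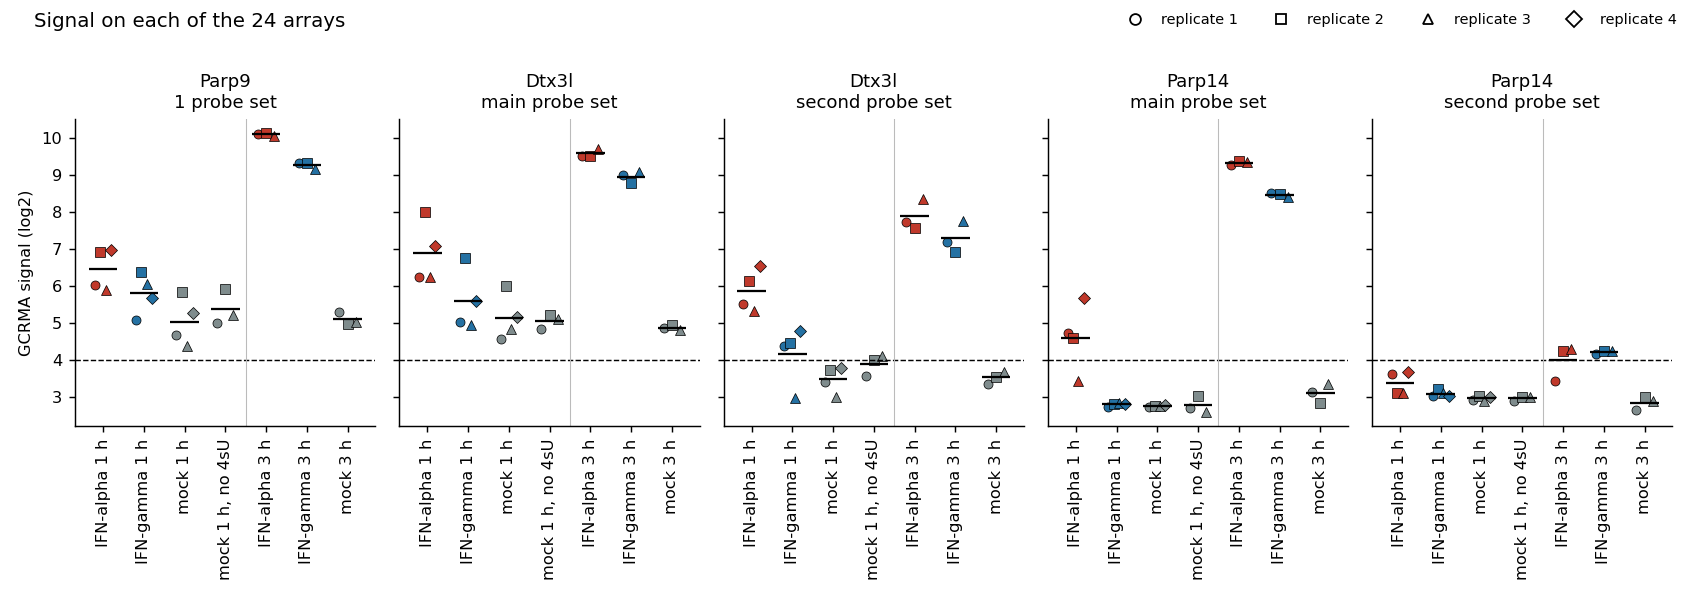
GCRMA signal (log2) of the 5 probe sets on each of the 24 arrays, by group. Symbols give the replicate number, horizontal bars the group mean and the dashed line log2 4. The 3 h interferon arrays of Parp9 lie between 9.16 and 10.14, against 4.97 to 5.31 in 3 h mock cells, and those of the main Parp14 probe set between 8.40 and 9.38, against 2.84 to 3.36.

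Parp9, the macrodomain partner of Dtx3l, read 10.09, 10.14 and 10.05 on the 3 IFN-alpha arrays of 3 h and 9.33, 9.33 and 9.16 on the IFN-gamma arrays, against 5.31, 4.97 and 5.04 in mock cells. The groups did not overlap, and the 2 interferons stood apart from each other as well. IFN-alpha raised it 31.7-fold (log2 difference 4.99 ± 0.36 SE, n = 3 arrays per group, limma adjusted p = 3.12e-09). IFN-gamma raised it 18.0-fold (4.17 ± 0.36, limma adjusted p = 9.4e-08).

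Dtx3l, the ubiquitin ligase, read 9.52, 9.51 and 9.70 with IFN-alpha for 3 h and 8.99, 8.78 and 9.08 with IFN-gamma, against 4.87, 4.94 and 4.81 in mock cells on the main probe set. Here too every interferon array lay above every mock array. The difference was 26.2-fold with IFN-alpha (4.71 ± 0.44 SE, limma adjusted p = 1.65e-07) and 16.9-fold with IFN-gamma (4.08 ± 0.44, limma adjusted p = 2.33e-06). The second probe set read 7.74, 7.58 and 8.36 with IFN-alpha and 7.19, 6.92 and 7.77 with IFN-gamma, against 3.35, 3.55 and 3.68 in mock cells. Its differences were at least 14.8-fold (4.36 ± 0.38) and at least 9.79-fold (3.76 ± 0.38).

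Parp14, the mono-ADP-ribosyltransferase, had its main probe set below log2 4 on all 10 mock arrays. After 3 h it read 9.27, 9.38 and 9.35 with IFN-alpha and 8.50, 8.49 and 8.40 with IFN-gamma, against 3.13, 2.84 and 3.36 in mock cells. That was at least 40.3-fold with IFN-alpha (6.22 ± 0.32 SE, limma adjusted p = 8.29e-12) and at least 22.1-fold with IFN-gamma (5.36 ± 0.32, limma adjusted p = 1.68e-10). Its second probe set stayed close to background. It read 3.44, 4.25 and 4.28 with IFN-alpha and 4.15, 4.23 and 4.25 with IFN-gamma, against 2.65, 3.00 and 2.88 in mock cells. Its log2 differences of 1.14 ± 0.19 and 1.37 ± 0.19 were called as well (limma adjusted p = 0.000827 and 0.0001), but IFN-alpha averaged 3.99, under the background level.

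Across the array 1.53% of probe sets were called higher with IFN-alpha at 3 h and 1.88% with IFN-gamma. Of the 5 probe sets of the cluster 5 were called higher with each. Both probe sets of Parp14 and the second of Dtx3l were above log2 4 on 3 arrays only because of interferon-treated cells, so their entry into the test depended on the response. The genes were also chosen with earlier results of these arrays known. No call of the 3 genes at 3 h was lost under any alternative or without any single array.

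**Figure D2:**
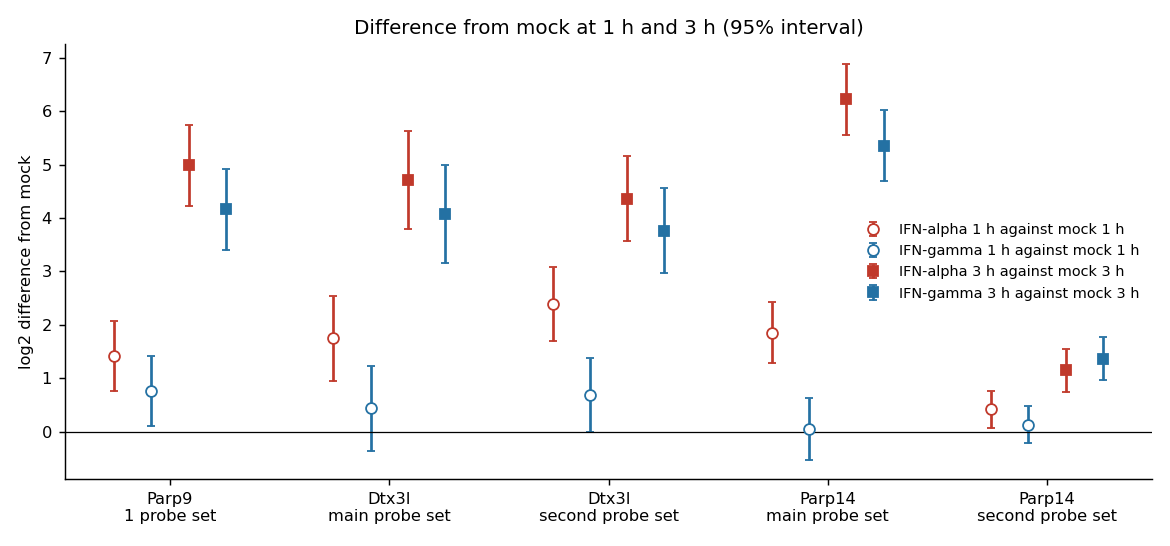
Log2 difference from the mock cells of the same time for the 5 probe sets, with 95% intervals from the limma fit (open circles 1 h, filled squares 3 h). At 3 h the first 4 probe sets lie between 3.76 and 6.22, and at 1 h between 1.42 and 2.40 with IFN-alpha and between 0.05 and 0.76 with IFN-gamma.

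At 1 h IFN-alpha gave smaller differences. Parp9 read 6.03, 6.90, 5.90 and 6.98 in replicates 1 to 4, against 4.67, 5.84, 4.37 and 5.26 in mock cells. Dtx3l read 6.24, 8.0, 6.24 and 7.07, against 4.58, 6.01, 4.84 and 5.15 in mock cells. In both genes the lowest IFN-alpha array lay above the highest mock array, by little in either case, and replicate 2 was the highest Dtx3l array of both groups. The Parp9 difference was 1.42 ± 0.32 (2.67-fold, n = 4 arrays per group) and that of Dtx3l 1.74 ± 0.38 (3.35-fold), and neither passed in limma (adjusted p = 0.0744 and 0.0664).

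Among the groups given 4sU, arrays with the same replicate number deviated together at each time, and with the number as a block both genes passed. The limma adjusted p was then 0.000963 for Parp9 and 2.02e-07 for Dtx3l, and within replicates the difference was positive in 4 of 4 pairs, from 1.06 to 1.72 for Parp9 and from 1.40 to 2.00 for Dtx3l. The blocked calls held without any 1 replicate number (adjusted p at most 0.00897 and 1.68e-05). Without the arrays of low 5′ actin signal the unblocked fit called both genes as well (1.54 and 1.66, limma adjusted p = 0.0245 and 0.00112). It called neither with no filter (limma adjusted p = 0.242 and 0.23), after quantile normalization (0.156 and 0.136) or with only the arrays of the groups compared. Without single arrays its adjusted p reached 0.428 for Parp9 and 0.324 for Dtx3l. The second Dtx3l probe set passed without a block. It read 5.50, 6.13, 5.31 and 6.53 with IFN-alpha, against 3.40, 3.72, 3.01 and 3.77 in mock cells (2.40 ± 0.33, at least 3.65-fold, limma adjusted p = 0.000547).

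Parp14 read 4.73, 4.59, 3.43 and 5.66 with IFN-alpha for 1 h, against 2.72, 2.75, 2.77 and 2.78 in mock cells. Replicate 3 was still below background, and the other 3 IFN-alpha arrays were above it. The difference of 1.85 ± 0.28 passed (at least 1.52-fold, limma adjusted p = 0.00123). It did not pass with values below log2 4 set to 4 (0.75, adjusted p = 0.41), when the fit held the 8 IFN-alpha and mock arrays alone (adjusted p = 0.73) or with only the 1 h arrays (0.0531). The second Parp14 probe set read 3.62, 3.11, 3.11 and 3.68, against 2.92, 3.04, 2.90 and 2.99 in mock cells, all under background (0.42 ± 0.17, limma adjusted p = 1). Of the 5 probe sets 2 were called higher with IFN-alpha at 1 h, against 0.259% of all probe sets, and 4 were called with the replicate block, against 0.622%. The 2 were the main Parp14 and the second Dtx3l probe set, which entered the test only through interferon arrays, so nothing is read from that share.

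IFN-gamma for 1 h gave differences near the spread between replicates. Parp9 read 5.08, 6.39, 6.05 and 5.68, overlapping mock cells (0.76 ± 0.32, limma adjusted p = 1, 95% interval 0.10 to 1.42, and adjusted p = 0.0515 with the replicate block). Dtx3l read 5.02, 6.76, 4.94 and 5.60 (0.44 ± 0.38, limma adjusted p = 1, interval -0.36 to 1.23). Each of these IFN-gamma arrays was above the mock array of the same number, by 0.10 to 0.76. The blocked fit called it (adjusted p = 0.045), but not without replicate 1, 2 or 4 (adjusted p from 0.127 to 0.229, differences from 0.33 to 0.44). The second Dtx3l probe set read 4.38, 4.45, 2.98 and 4.78 (0.68 ± 0.33, limma adjusted p = 1, and 0.0576 with the block), with replicate 3 no higher than its mock array. Parp9 passed in the blocked fit only without replicate 4 (0.88, adjusted p = 0.0475).

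Parp14 stayed under background. Its main probe set read 2.74, 2.81, 2.83 and 2.82 with IFN-gamma for 1 h, close to the mock arrays (0.05 ± 0.28, limma adjusted p = 1, interval -0.53 to 0.62). Of the 5 probe sets 0 were called with IFN-gamma at 1 h in limma (1 at an unadjusted p under 0.05, Parp9), against 0.435% of all probe sets called higher, and 1 with the replicate block, against 1.32%.

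**Figure D3:**
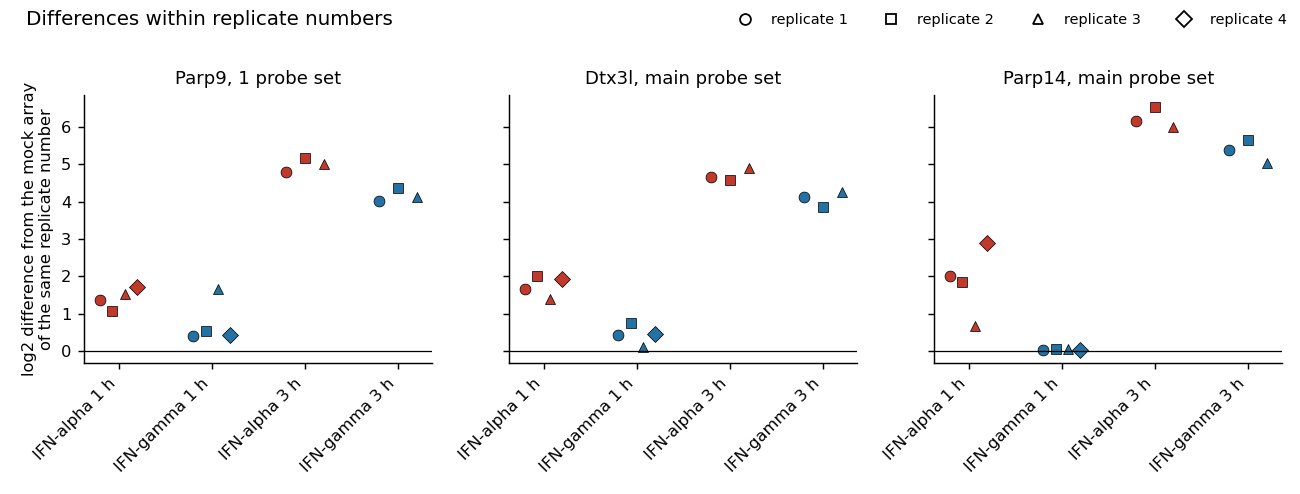
Log2 difference of each interferon array from the mock array of the same time and replicate number, for Parp9 and the main probe sets of Dtx3l and Parp14. Symbols give the replicate number. The 4 IFN-alpha pairs of 1 h lie above 0 in each gene, from 0.67 to 2.89 in Parp14, while the IFN-gamma pairs of Parp14 lie between 0.02 and 0.07.

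Set directly against IFN-gamma, IFN-alpha gave the higher mean in each of the 3 genes at both times. At 1 h the Parp14 difference between the interferons was 1.80 ± 0.28 (at least 1.52-fold, limma adjusted p = 0.00143). It was not called with values below log2 4 set to 4 (0.75, adjusted p = 0.25) or with only the 8 arrays compared (adjusted p = 0.657). For Dtx3l it was 1.31 ± 0.38 (limma adjusted p = 0.36, and 5.64e-06 with the replicate block), and 1.72 ± 0.33 on the second probe set (limma adjusted p = 0.0171). For Parp9 it was 0.65 ± 0.32, which passed in neither fit (limma adjusted p = 1, interval -0.0037 to 1.31, and adjusted p = 0.102 with the block). Without replicate 3 the blocked fit called Parp9 (0.92, adjusted p = 0.0027). Of the 5 probe sets 2 were called higher with IFN-alpha than with IFN-gamma at 1 h, against 0.104% of all probe sets, and 3 with the replicate block, against 0.995%. The 2 were again the main Parp14 and the second Dtx3l probe set, and nothing is read from their share.

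At 3 h the gap between the interferons was small beside the response. It was 0.82 ± 0.36 for Parp9 (interval 0.06 to 1.58), 0.63 ± 0.44 for Dtx3l (-0.29 to 1.55) and 0.87 ± 0.32 for Parp14 (0.21 to 1.53). IFN-alpha was higher in 3 of 3 pairs of arrays in each gene, and the arrays of the 2 groups did not overlap. The share of all probe sets without such overlap was not counted, so nothing is read from it. In the fit of all 7 groups none of the 3 differences passed (limma adjusted p = 0.937, 1 and 0.452), against 0.761% of probe sets called higher with IFN-alpha. With the replicate block Parp9 (adjusted p = 0.0441) and Dtx3l (0.00478) passed and Parp14 did not (0.17), against 2.19% of probe sets called higher. With only the 9 arrays of 3 h in the fit, a choice made after the data were seen, all 3 passed (limma adjusted p = 0.000997, 0.0041 and 0.00221). On the second Dtx3l probe set IFN-alpha was higher in 3 of 3 pairs (0.55 to 0.66), with overlapping arrays, and the difference of 0.60 ± 0.38 was not called (limma adjusted p = 1, and 0.133 with the block). On the second Parp14 probe set it was -0.22 ± 0.19, with IFN-alpha higher in 2 of 3 pairs, near or under background.

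In the order of the 7 groups, IFN-alpha 3 h came first and IFN-gamma 3 h second for Parp9, Dtx3l and the main Parp14 probe set, followed by IFN-alpha 1 h. The gap between IFN-gamma 3 h and IFN-alpha 1 h was 2.82 for Parp9, 2.06 for Dtx3l and 3.86 for Parp14, with no overlap of arrays. From there on the neighbouring groups of Parp9 and of the main Dtx3l probe set overlapped at every step, down to mock 1 h for Parp9 (5.04 ± 0.65 SD, n = 4) and mock 3 h for Dtx3l (4.87 ± 0.06 SD, n = 3). On the second Dtx3l probe set IFN-alpha 1 h and IFN-gamma 1 h did not overlap (1.72). For Parp14 the 4 groups after IFN-alpha 1 h averaged between 2.75 and 3.11, all under background. The second Parp14 probe set put IFN-gamma 3 h (4.21) before IFN-alpha 3 h (3.99), with overlapping arrays.

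The response grew between the times in all 3 genes. Each time's response was taken against its own mock cells, because the 4sU dose and the labelling window also changed. With IFN-alpha the 3 h difference exceeded the 1 h difference by 3.57 ± 0.48 for Parp9 (limma adjusted p = 7.84e-05), by 2.97 ± 0.58 for Dtx3l (0.00745) and by 4.37 ± 0.42 for Parp14 (6.3e-07). With IFN-gamma the growth was 3.40 ± 0.48 for Parp9 (limma adjusted p = 0.000226), 3.64 ± 0.58 for Dtx3l (0.00104) and 5.31 ± 0.42 for Parp14 (6.1e-08). The share of probe sets called for a larger response at 3 h was 0.932% for IFN-alpha and 0.787% for IFN-gamma. These 6 calls, on the Parp9 and main probe sets, held under every alternative that was run and without each single array. The second Dtx3l probe set grew by 1.97 ± 0.51 with IFN-alpha, not called (limma adjusted p = 0.0924, and 0.000283 with the block). With IFN-gamma it grew by 3.09 ± 0.51 (0.00144). The second Parp14 probe set, near or under background, grew by 0.73 ± 0.26 with IFN-alpha, not called (0.696), and by 1.24 ± 0.26 with IFN-gamma (0.0159). The Parp14 sizes rest on values under background in mock cells and with IFN-gamma at 1 h. With values below log2 4 set to 4 the Parp14 growth was 4.59 with IFN-alpha and 4.46 with IFN-gamma, so the order of the interferons turned. With the mean of each gene's probe sets it was 2.55 and 3.27 for Parp14, and 2.47 and 3.36 for Dtx3l.

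No probe set of the cluster was called between mock cells with and without 4sU at 1 h. Without 4sU Parp9 read 5.00, 5.91 and 5.20 and Dtx3l 4.83, 5.21 and 5.12, and both genes overlapped the labelled mock arrays given above. Parp9 averaged 5.04 ± 0.65 with 4sU and 5.37 ± 0.48 without (SD, n = 4 and 3), a difference of -0.33 ± 0.34 SE (limma adjusted p = 0.871, interval -1.05 to 0.38). Dtx3l averaged 5.14 ± 0.62 with 4sU and 5.05 ± 0.20 without (difference 0.09, limma adjusted p = 0.969). Parp14 was under background in both. None of the 5 probe sets had an unadjusted p under 0.05 in limma, and the share called was 0 of 5, against 0.0311% of all probe sets called in either direction, with 1352 of the 19305 at an unadjusted p under 0.05.

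The genes on either side of the cluster were next set against it. Of the 16 nearest genes with a probe set of their own, 8 on each side, 8 were above log2 4 on at least 3 arrays: Mylk, Hacd2, Sec22a, Pdia5 and Slc49a4 beyond Parp14, and Kpna1, Fam162a and Ccdc58 beyond Parp9. Kpna1, which encodes an importin that carries proteins into the nucleus, lies 10.7 kb past the end of Parp9. Its differences were -0.11 ± 0.26 with IFN-alpha and -0.24 ± 0.26 with IFN-gamma at 3 h. Slc49a4, the nearest tested gene on the other side at 62.5 kb, gave -0.15 ± 0.27 and -0.08 ± 0.27. At 3 h the 8 neighbours lay between -0.15 and 0.02 with IFN-alpha and between -0.24 and 0.14 with IFN-gamma. None was called in limma at either time, none had an unadjusted p under 0.05, and none was called with the replicate block. Over all probe sets the share called higher was between 0.259% and 1.88% (up to 3.86% with the block). No call among 8 genes therefore lies near the background, and nothing is read from that count. Hspbap1, 3.43 kb from Parp14, averaged 3.37 on its highest probe set and was not tested, nor were 7 others.

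**Figure D4:**
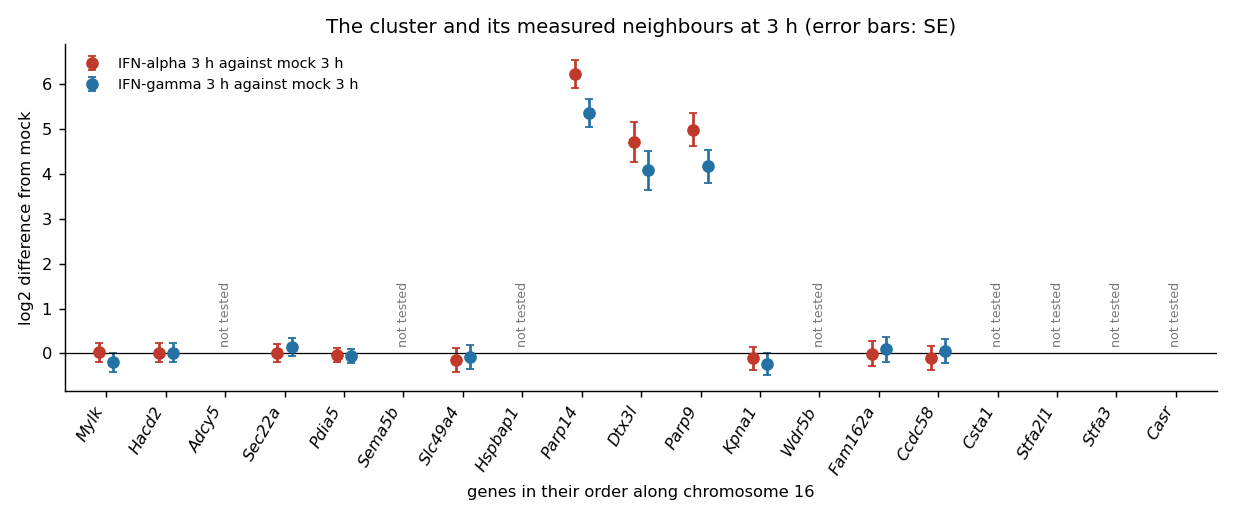
Log2 difference from mock at 3 h (± SE) for Parp14, Dtx3l, Parp9 and the 8 nearest annotated genes with a probe set on each side, in their order along chromosome 16. Genes without a value above log2 4 on 3 arrays are marked as not tested. The tested neighbours lie between -0.24 and 0.14, and the 3 genes of the cluster between 4.08 and 6.22.

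Among the other PARP genes, 11 of the 14 listed were tested. At 3 h 3 of them rose with IFN-alpha, 3 with IFN-gamma and none fell, against 1.53% and 1.88% of all probe sets called higher. The list's median was 0.11 with IFN-alpha and 0.39 with IFN-gamma, beside -0.07 and -0.05 over all 9421 genes. Parp12, known for blocking viral translation in cell culture, rose 12.6-fold with IFN-alpha (3.65 ± 0.32 SE, limma adjusted p = 7.09e-08) and 5.97-fold with IFN-gamma (2.58 ± 0.32, limma adjusted p = 1.97e-05). Parp11, a mono-ADP-ribosyltransferase, rose 5.80-fold (2.54 ± 0.21, limma adjusted p = 2.13e-08) and 2.85-fold (1.51 ± 0.21, limma adjusted p = 7.1e-05). Zc3hav1, also called PARP13, binds viral RNA and has no transferase activity. It rose 3.01-fold with IFN-alpha (1.59 ± 0.28, limma adjusted p = 0.00165), while its difference with IFN-gamma was 0.82 ± 0.28 (limma adjusted p = 0.321). That difference was called with the replicate block (adjusted p = 9.27e-05), without the arrays of low 5′ actin signal (0.00654), with only the groups compared (0.00246) and with only the arrays of 3 h (0.000981). The mean of the Zc3hav1 probe sets was 2.37 with IFN-alpha (limma adjusted p = 2.24e-09) and 0.96 with IFN-gamma (limma adjusted p = 0.00137).

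Parp3, which acts in the repair of DNA strand breaks, ran the other way round. It rose 3.86-fold with IFN-gamma (1.95 ± 0.38 SE, limma adjusted p = 0.00414), and its difference with IFN-alpha was 0.99 ± 0.38 (limma adjusted p = 0.708, and 6.25e-05 with the block). The direct difference, IFN-alpha minus IFN-gamma, was -0.95 ± 0.38 (limma adjusted p = 0.642, and 9.99e-05 with the block). For Parp11 it was 1.03 ± 0.21 (limma adjusted p = 0.00741). Parp1, the main nuclear PARP, gave 0.01 ± 0.35 with IFN-alpha and -0.0028 ± 0.35 with IFN-gamma at 3 h. At 1 h none of the 11 was called with either interferon in limma (1 with IFN-alpha, Parp12, and 0 with IFN-gamma at an unadjusted p under 0.05). With the replicate block 4 rose with IFN-alpha at 3 h, 6 with IFN-gamma at 3 h and 1, Parp3, with IFN-gamma at 1 h, while 2.76% and 3.86% of all probe sets were called higher at 3 h and 1.32% with IFN-gamma at 1 h.

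**Figure D5:**
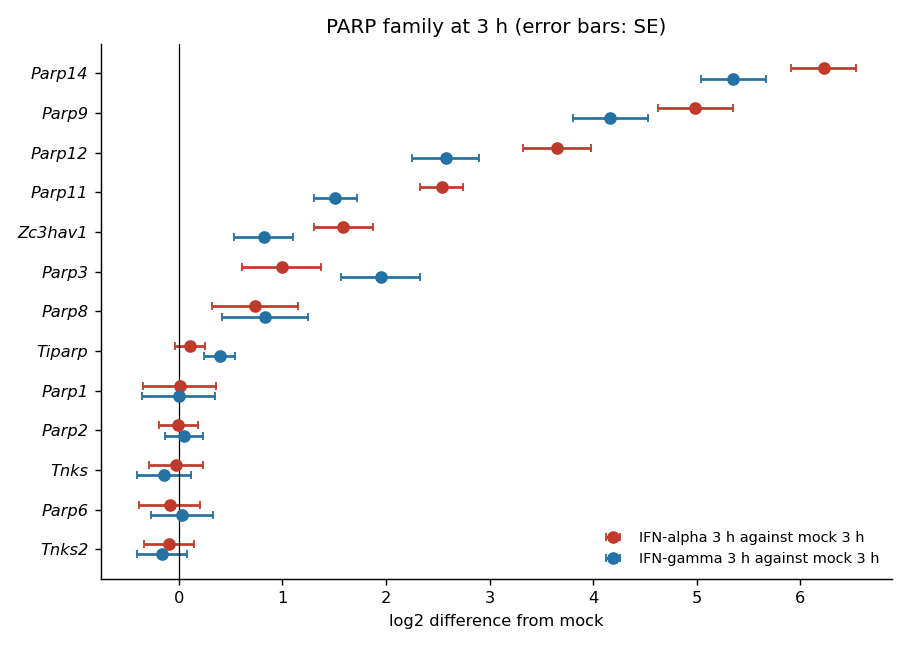
Log2 difference from mock at 3 h (± SE) for Parp14, Parp9 and the 11 other PARP genes tested, ordered by the IFN-alpha difference. Parp12, Parp11 and Zc3hav1 follow Parp14 and Parp9 with IFN-alpha, and Parp3 has its larger value with IFN-gamma.

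Other genes of the ADP-ribose system were then read from lists. None of the 3 other Deltex genes tested (Dtx2, Dtx3 and Dtx4) and none of 8 readers and hydrolases of ADP-ribose was called in limma in any of the 4 comparisons with mock, with 0 at an unadjusted p under 0.05 and 0 with the replicate block. Between 0.259% and 1.88% of all probe sets were called higher in these comparisons (up to 3.86% with the block), so a count of 0 among so few genes lies near the background. Dtx1 and Macrod2 were not above log2 4 on 3 arrays and were not tested. At 3 h the median was -0.09 with IFN-alpha and -0.12 with IFN-gamma for the Deltex genes, and -0.07 and 0.0017 for the readers and hydrolases. At 3 h Dtx4 differed by -0.12 ± 0.30 with IFN-alpha and by 0.02 ± 0.30 with IFN-gamma. Of the readers and hydrolases, Parg, which removes ADP-ribose chains, differed by -0.10 ± 0.19 with IFN-alpha at 3 h, and Macrod1, a macrodomain hydrolase, by 0.09 ± 0.34.

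Of 12 genes of interferon receptor and STAT signalling tested, 3 rose with IFN-alpha and 4 with IFN-gamma at 3 h, and none fell, against 1.53% and 1.88% of all probe sets called higher. The list median was 0.06 and 0.23, beside -0.07 and -0.05 over all genes. The replicate block called 4 higher with IFN-alpha (Jak2 added, a kinase of the receptors) and 5 with IFN-gamma (Ifnar2 added, a subunit of the IFN-alpha receptor), against 2.76% and 3.86%. Stat2, a component of the interferon-stimulated gene factor, rose 21.1-fold with IFN-alpha (4.40 ± 0.46 SE, limma adjusted p = 1.05e-06) and 14.7-fold with IFN-gamma (3.88 ± 0.46, limma adjusted p = 1.01e-05). Irf9, the DNA-binding component of that factor, was 7.86-fold higher with IFN-alpha and 5.62-fold higher with IFN-gamma at 1 h, and 14.3-fold and 10.6-fold higher at 3 h (limma adjusted p at most 3.1e-06). At 1 h Irf1 and Irf9 were the 2 genes of the list called with either interferon in the fit without the block, against 0.259% of all probe sets with IFN-alpha and 0.435% with IFN-gamma. With the block the count was 2 with IFN-alpha and 4 with IFN-gamma, against 0.622% and 1.32%, with Ifnar2 (0.33, limma adjusted p = 0.0419) and Stat3 (0.45, limma adjusted p = 0.0105) added. Irf1, a transcription factor known to be induced through a GAS site, ran against the order of the cluster. It was 10.2-fold higher with IFN-alpha at 1 h and 38.8-fold higher with IFN-gamma, and the direct difference of -1.93 ± 0.19 was called (limma adjusted p = 6.7e-06). At 3 h its difference was 0.98 ± 0.22 with IFN-alpha (limma adjusted p = 0.021) and 4.54 ± 0.22 with IFN-gamma, and the IFN-alpha call was lost without any 1 of its 6 arrays (adjusted p from 0.0683 to 0.098), although the difference then stayed between 0.96 and 1.00. It held with the replicate block (adjusted p = 0.0102), without the arrays of low 5′ actin signal (0.00117) and with only the arrays of 3 h (6.74e-05). Stat3 rose with IFN-gamma at 3 h (1.36 ± 0.21, limma adjusted p = 0.000261), and the direct difference, IFN-alpha minus IFN-gamma, of -1.06 ± 0.21 was called as well (limma adjusted p = 0.005). The mean of the Stat3 probe sets was not called with IFN-gamma (1.26, adjusted p = 0.302). Stat6, which Parp14 assists in lymphocytes, gave -0.18 ± 0.14 with IFN-alpha and 0.04 ± 0.14 with IFN-gamma.

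The genes most like the cluster were ranked by the root mean square distance of their 4 log2 differences from mock, which share arrays and controls, over 9421 genes. On the main probe sets Dtx3l was the nearest of 9420 other genes to Parp9 (distance 0.27). The second Dtx3l probe set was not ranked. Its differences with IFN-alpha and IFN-gamma were 2.40 and 0.68 at 1 h and 4.36 and 3.76 at 3 h. The SEs of the Parp9 and Dtx3l differences, 0.32 to 0.44, exceed the distance of 0.27, so ranks this close are uncertain. Parp9 was the second nearest to Dtx3l, after Xaf1, a pro-apoptotic interferon-stimulated gene (0.18). In the order of Parp14, Parp9 came at rank 5 (0.95) and Dtx3l at rank 8 (1.01). Outside the cluster the 5 nearest to Parp9 were Trim21 (0.30), Xaf1 (0.33), Stat2 (0.40), Samd9l (0.56) and Trim30a (0.84). Those nearest to Dtx3l were Xaf1, Trim21 (0.42), Samd9l (0.46), Stat2 (0.50) and Ddx58 (0.78), which encodes the RNA sensor RIG-I. Parp14 was closest to the guanylate-binding protein gene Gbp3 (0.73), then to Trim21 (0.90), Rtp4 (0.92), Xaf1 (0.95) and Oasl2 (0.98). The distances of Parp14 rest on mock and 1 h IFN-gamma values under background. With values below log2 4 set to 4, a choice made after the data were seen, Parp9 stood at rank 2 (0.56) and Dtx3l at rank 4 (0.66) in the order of Parp14, Xaf1 was the nearest (0.43), Gbp3 stood at rank 5 (0.80), Oasl2 at rank 8 (0.87) and Rtp4 at rank 31 (1.62). Dtx3l remained nearest to Parp9 (0.27) under that floor, and Parp9 became nearest to Dtx3l, ahead of Xaf1 (0.28). Trim21, a ubiquitin ligase that binds antibodies in the cytosol, differed from mock by 1.77 and 1.07 with IFN-alpha and IFN-gamma at 1 h and by 4.97 and 4.55 at 3 h.

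Of these 9 genes 8 had an entry in the promoter table, and 5 of the 8 held the ISRE core in at least 1 window. Gbp3 and Trim30a had 2 windows each, of which 1 and 2 held it. None of the 8 held the GAS core. The shares over the whole table, 3.44% for ISRE and 8.30% for GAS, are per window and not per gene. A GAS count of 0 among so few genes lies near that background. One match per gene is shown, to be set beside the Dtx3l window above, which held neither core. Each has 10 bases on either side and is read 5′ to 3′ on the gene's strand (build GRCm38.p6, plus for Stat2 and Gbp3, minus for the others), with the ISRE core or its reverse complement in capitals.
Trim21, chr7:102565450-102565479: cctctgagagGAAACTGAAAgtgaaatttg
Stat2, chr10:128270266-128270295: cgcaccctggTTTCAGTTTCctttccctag
Ddx58, chr4:40239804-40239833: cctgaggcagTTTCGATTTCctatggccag
Gbp3, chr3:142559989-142560018: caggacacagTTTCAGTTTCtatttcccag
Trim30a, chr7:104465210-104465239: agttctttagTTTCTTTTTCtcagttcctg
Xaf1 and Samd9l, which were among the closest to Dtx3l, and Oasl2 held no ISRE core in their windows either. Parp9, Parp14 and Rtp4 have no entry in the table.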

How the data were processed

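Per the labels' protocols, RNA was extracted with Trizol and labelled with the Affymetrix one-cycle protocol. The authors summarised the arrays with GCRMA, per the submitters' processing notes, and deposited log2 values. The version and the number of runs are not given in the sources used here. Of 45101 probe sets 64 controls were left out, and 34945 of the others had 1 gene symbol, 932 several and 9160 none. Genes with several probe sets were read by the one of highest mean signal. The 7 groups were fitted together with limma 3.58.1 (R 4.3.3, 17 residual degrees of freedom, two-sided). In simulated data with independent noise the fit recovered large known changes set in the 3 h IFN-alpha group. Shared replicate effects and the wider spread at 1 h were not simulated, so the simulation says nothing of the 1 h calls. Between groups of one time given 4sU, every same-numbered pair of arrays correlated above 0.1 in its deviations from the group means (1 h: 0.465 to 0.914, 3 h: 0.128 to 0.646). The replicate number was therefore also used as a block. Pairs of mock arrays with and without 4sU correlated from 0.0809 to 0.802. Alternatives were the background floor, no filter, the block, fewer arrays in the fit, low-actin arrays left out, the mean of probe sets and each array left out. Named genes came from lists (other PARP genes, other Deltex genes, ADP-ribose readers and hydrolases, receptor and STAT genes), 8 neighbours on each side and the 5 nearest genes by pattern. The members, lists and tests were chosen with earlier results of these data known. Promoters are RefSeq's, build GRCm38.p6.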

Additional observations from a re-analysis of the deposited data

Results flagged for a closer look

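The response to each interferon differed between 1 h and 3 h by an interaction term in all 3 genes, with IFN-alpha by 3.57 for Parp9, 2.97 for Dtx3l and 4.37 for Parp14, and with IFN-gamma by 3.40, 3.64 and 5.31 (log2, 3 h minus 1 h). The Parp14 values rest on groups at or under background, and with values below log2 4 set to 4 they were 4.59 with IFN-alpha and 4.46 with IFN-gamma. With the mean of the probe sets the response differed by 2.55 and 3.27 for Parp14. On the second probe sets of Dtx3l (1.97) and Parp14 (0.73) the IFN-alpha term was not called (limma adjusted p = 0.0924 and 0.696). The 4sU dose and the labelling window differed between the times in interferon and mock cells alike, and their part in these differences was not tested. A Dixon test marked no array as apart from its own group of 4 in any of the 15 sets of values examined. With 4 values the test can find only an extreme departure, so nothing is read from this.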

How the results depend on the processing

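At 3 h the 6 differences of Parp9, Dtx3l and Parp14 from mock were called under every alternative run and without any 1 array (lowest 4.01, highest 6.35 without single arrays). At 1 h the calls depended on the model. The fit with the replicate number as a block called Parp9 (1.42) and Dtx3l (1.74) with IFN-alpha and Dtx3l with IFN-gamma (0.44), which the fit without a block did not. Without the arrays of low 5′ actin signal Parp9 (1.54) and Dtx3l (1.66) were called with IFN-alpha, and so was the mean of the Dtx3l probe sets (2.07). Parp9 and the main Dtx3l probe set stayed uncalled with no filter (limma adjusted p = 0.242 and 0.23) and with only the 2 groups' arrays. The Parp14 call with IFN-alpha was lost with values below log2 4 set to 4 (0.75), and at 1.85 with only the 2 groups' arrays or only arrays of 1 h in the fit. The cause was not tested. Without single arrays or, in the blocked fit, single replicate numbers, the IFN-alpha differences ran from 1.20 to 1.69 for Parp9 and from 1.37 to 2.03 for Dtx3l, and the IFN-gamma differences from 0.46 to 1.03 for Parp9 and from 0.043 to 0.72 for Dtx3l. Without mock replicate 2 the unblocked fit called Parp9 and Dtx3l with IFN-alpha (adjusted p = 0.0127 and 0.0174), as it did without IFN-alpha replicate 3 (0.0362 and 0.0341), and Dtx3l also without IFN-alpha replicate 1 (0.0462). The 4sU difference, never called, turned sign for Parp14 without low-actin arrays (0.042) and for the mean of the Dtx3l probe sets (-0.17), and without single arrays ran from -0.20 to 0.28 for Dtx3l and from -0.12 to 0.10 for Parp14. Over all probe sets the replicate block moved the number called to 135 (50 without it) with IFN-alpha and 428 (95) with IFN-gamma at 1 h, to 591 (300) and 1029 (385) at 3 h, to 401 (70) and 906 (325) between the interferons at 1 h and 3 h, to 389 (184) and 527 (160) for the responses and to 0 (6) for 4sU, whose numbers do not pair by the check of deviations (0.0809 at the lowest). With only the compared groups' arrays it was 14, 28, 506, 952, 10 and 869 for the first 6 and 0 for 4sU, and with only arrays of the same time 22, 51, 609, 1127, 32 and 993, and 0 for 4sU. For 4sU it was 28 with values below log2 4 set to 4, 18 with no filter and 2 without low-actin arrays. Without single arrays or replicate numbers the number ran from 38 to 191 with IFN-alpha and from 76 to 400 with IFN-gamma at 1 h, from 51 to 433 between the interferons at 1 h, and from 1 to 13 for 4sU. The Parp14 mock signal is below background, which limits its folds to bounds.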

Other observations

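On replicate 3 of IFN-gamma at 1 h the genes of the cluster parted. Parp9 was 1.67 above the mock array of the same number there, against 0.41 to 0.55 in the other 3 pairs, while Dtx3l was 0.10 above it on the main probe set and -0.02 on the second. In the same comparison Parp14 differed by 0.07. This array was noticed after its values were seen, and these differences within the pair were not tested.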
